A study of Arabidopsis thaliana with 2 samples.

Results

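The xyloglucan endotransglycosylase family (XTH genes) of Arabidopsis thaliana was followed in the elongating inflorescence stem of wild type and of sgr1. Its members were the genes whose array description names a xyloglucan endotransglycosylase, a xyloglucan:xyloglucosyl transferase or an endo-xyloglucan transferase. This rule found 33 of the 25665 loci named on the array, each with 1 spot, and a gene table of the TAIR10.1 assembly gives all 33 an XTH number, XTH1 to XTH33. The groups were wild type Columbia plants, labelled WT(Col), and plants labelled sgr1 (shoot gravitropism 1), grown on soil in constant white light at 23 °C. The sgr1 mutant carries a lesion in SCARECROW (SCR), a transcription factor gene needed to form the endodermis. No allele is named in the labels. RNA of pooled plants came from a 1.5 cm piece of stem that began 0.3 cm below the apex, taken from stems 5 to 8 cm tall. Both genotypes were hybridised together on each of 2 two-colour Agilent arrays of 1 slide. Array 1 had sgr1 in Cy3 and wild type in Cy5, and array 2 had the dyes swapped.

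Xyloglucan is a branched sugar polymer that coats and tethers cellulose microfibrils in the primary wall of growing cells. XTH enzymes cut a xyloglucan backbone and join the new end to another chain, and a few members instead hydrolyse it, so the network can be loosened or rebuilt while cells expand. The genes differ widely in where they are expressed, with members known from shoot apices, vascular tissue, roots, root hairs and flowers, and several respond to touch, light or hormones. By sequence the family is divided into group 1 (XTH1 to XTH11), group 2 (XTH12 to XTH26) and group 3 (XTH27 to XTH33), the last of which holds the members known as hydrolases.

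Ratios below are log2 values of sgr1 over wild type, given for each array and as mean ± SD (n = 2), with folds computed from the mean. Signals are log2 intensities after normalization, compared only within a gene, since probes differ in brightness for reasons other than transcript level. A gene was called when its adjusted p from limma (Benjamini-Hochberg over all genes) was under 0.05. The labels differ on whether the arrays carry separate plant samples, so the spread between these arrays may be technical. The p-values rest mostly on that spread pooled over all genes, with 47.7 prior against 1 residual degrees of freedom. They depend little on a gene's own SD. The standard error was 0.139 for XTH13 (SD 0.00997) and 0.142 for XTH8 (SD 0.302). In whole stem tissue, fewer cells of a type and less RNA per cell cannot be told apart.

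Between 59.2% and 66.5% of the spots were well above background in the 4 channels, and none was saturated. SCR was lower in sgr1 on both arrays (-0.81 and -1.16); its probe may lie outside the lesion. All 10 stem genes examined, among them BP and PNY, were well above background in every channel. Of 5 floral organ genes 2 were, of 2 pollen genes 2, and of 4 root genes none. The defining floral genes AP3 and AG and the root hair gene EXPA7 were above it in no channel. The floral gene PI and the root genes RHD6 and WOX5 were above it in 1 channel, and the root gene COBL9 in 2. Signals were also summed by list, with the brightest spot of each gene in each channel. The sum of the stem genes was 79557 to 86670 in wild type and 134129 to 144701 in sgr1. The wax gene CER1 made up 79.3% and 72.8% of the rise on arrays 1 and 2. That share rests on the choice of spot, since the brightest of CER1 read 15.02 and 14.67 in wild type and 16.11 and 16.17 in sgr1. The mean of its 2 probes was far dimmer, at 12.12 and 12.27 in wild type and 12.99 and 13.68 in sgr1. CER1 (1.14 ± 0.383, from the mean of its 2 probes) was among 4 stem genes called higher, where 9.92% of all genes were. The other 6 were uncalled, with PNY (-0.02) and ATHB8 (-0.07) slightly below 0. These sums add probes of different brightness, and those of the floral and root lists mostly add genes at the level that the offset sets, so that they do not measure the amount of a tissue. The summed floral signal was 370 to 393 in wild type and 394 to 463 in sgr1, the pollen signal of 2 genes 200 to 218 and 243 to 275, and the root signal 296 to 304 and 287. AP1, of the floral genes (0.61 ± 0.187), and VGD1, of the pollen genes (0.48 ± 0.034), were called higher. The part of these tissues in the XTH values was not tested.

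XTH genes moved in both directions. Of 22 members that passed the brightness filter, 4 were called higher in sgr1 (XTH6, XTH7, XTH30 and XTH31) and 5 lower (XTH9, XTH16, XTH22, XTH27 and XTH28). Among all 19059 genes tested, 9.92% were called higher and 8.98% lower, so 4 of 22 and 5 of 22 were both larger shares than on the whole array. The median ratio of the 22 was -0.01, and that of all genes 0.00477. Their median size regardless of sign was 0.28, against 0.17 for all genes. Changes of at least 1.5-fold in one direction on both arrays were shown by 1 member upward (XTH7) and 3 downward (XTH16, XTH22 and XTH27), where 2.89% and 2.24% of all genes did so.

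**Figure D1:**
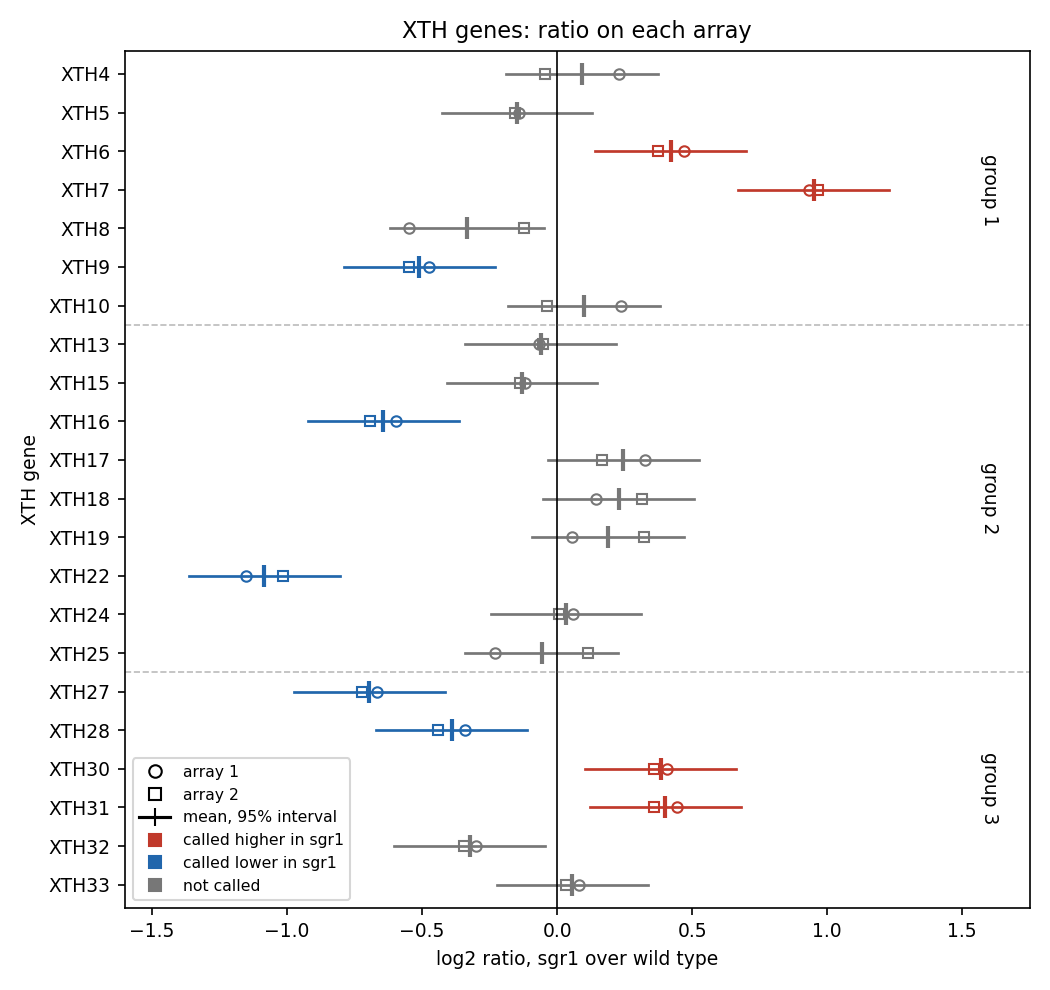
Log2 ratio of sgr1 over wild type (x axis) for the 22 measured XTH genes (y axis, in order of XTH number, with dashed lines between groups 1, 2 and 3). Circles are array 1, squares array 2, ticks the mean and lines its 95% interval from limma. XTH7 lies farthest to the right at 0.95 and XTH22 farthest to the left at -1.08.

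XTH22 (AT5G57560), also called TCH4, encodes an enzyme whose gene is induced by touch, darkness, temperature shocks and brassinosteroids, and it had the strongest fall of the 22 measured members. Its signal was 9.54 and 9.38 in wild type and 8.39 and 8.37 in sgr1 on arrays 1 and 2. The genotypes did not overlap, although this held for 59.3% of all genes, 14 of the 22 members and all 9 called ones. The 14 include XTH17, which passed the filter through its sgr1 signal alone. The XTH22 ratios of -1.15 and -1.01 gave a 2.12-fold lower level in sgr1 (-1.08 ± 0.0982, adjusted p = 2.7e-08). In the intensities deposited by the authors, as processed by the scanner software, the XTH22 spot read 1050 and 1150 in wild type and 416 and 492 in sgr1.

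XTH7 (AT4G37800) showed the strongest rise of the 22. Its signal was 8.23 and 8.29 in wild type and 9.17 and 9.26 in sgr1, with both sgr1 values well clear of both wild type values. The ratios were 0.93 and 0.97, a 1.93-fold higher level (0.95 ± 0.0239, adjusted p = 5.26e-07). The deposited intensities were 406 and 439 in wild type and 885 and 942 in sgr1. The arrays thus gave nearly the same change for this gene with either dye.

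**Figure D2:**
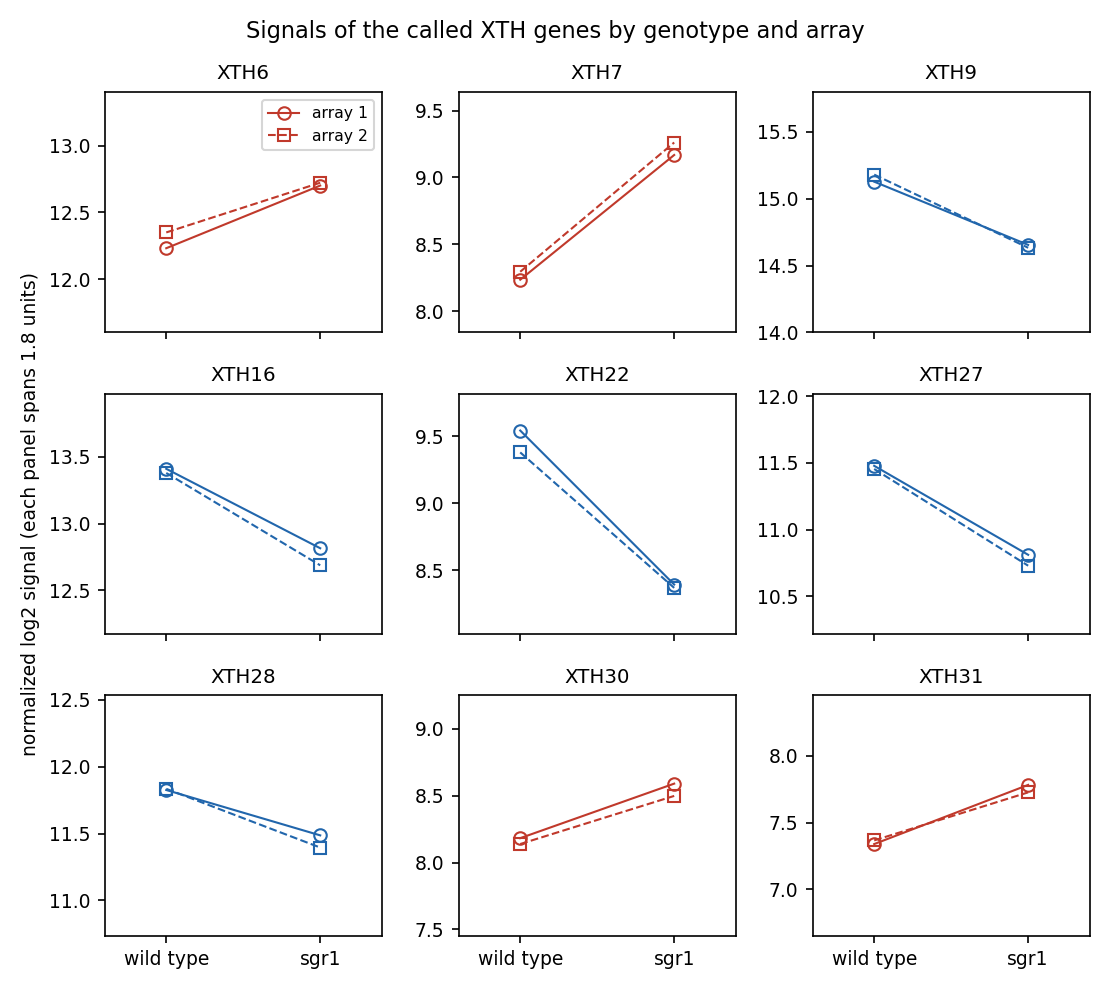
Normalized log2 signal (y axis, 1.8 units in each panel) in wild type and sgr1 for the 9 called XTH genes, with array 1 as circles and solid lines and array 2 as squares and dashed lines. In every panel both sgr1 points lie on the same side of both wild type points, and the steepest lines are those of XTH22 and XTH7.

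Within the groups, 6 to 9 genes were measured each, and their counts stand against the same 9.92% and 8.98% of all genes, so that a count of 0 or 1 is near these shares. In group 1, 7 of 11 members were measured, of which 2 rose, 1 fell and 4 did not pass. Besides XTH7, XTH6 (AT5G65730) rose, from signals of 12.23 and 12.35 to 12.70 and 12.72. Its ratios of 0.47 and 0.37 made a 1.34-fold rise (0.42 ± 0.0686, adjusted p = 0.0256). XTH9 (AT4G03210), known for its expression in inflorescence apices, fell from 15.13 and 15.18 to 14.65 and 14.63. Its ratios were -0.47 and -0.55, a 1.42-fold fall (-0.51 ± 0.0526, adjusted p = 0.00577).

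The 4 uncalled members of group 1 lay between -0.33 and 0.10. XTH4 (AT2G06850), which acts with XTH9 in the expansion of xylem cells in the stem, had ratios of 0.23 and -0.04, and the 95% interval of its mean ran from -0.19 to 0.37. XTH10 (AT2G14620) likewise changed sign between arrays (0.24 and -0.04), while XTH5 (AT5G13870) was slightly below 0 on both (-0.14 and -0.16). XTH8 (AT1G11545) had ratios of -0.55 and -0.12, the largest difference between arrays of the 22 members. Its mean missed the threshold (-0.33 ± 0.302, adjusted p = 0.0941), as did the similar mean of XTH32, with an SD of 0.0311.

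In group 2, 9 of 15 members were measured, with no rise and 2 falls. The falls were those of XTH22 and of XTH16 (AT3G23730), whose signal went from 13.41 and 13.38 to 12.82 and 12.69. XTH16 had ratios of -0.59 and -0.69 and was 1.56-fold lower in sgr1 (-0.64 ± 0.0684, adjusted p = 0.00048). XTH15 (AT4G14130) was uncalled at -0.13 ± 0.0131, with a 95% interval from -0.41 to 0.15. XTH17 (AT1G65310), an enzyme studied for its part in aluminium sensitivity of roots, was well above background in sgr1 on both arrays and in wild type on neither. Its signal was 6.05 and 6.17 in wild type and 6.38 and 6.33 in sgr1, and it was not called (95% interval of the mean ratio -0.03 to 0.53, adjusted p = 0.236). With wild type at background, no fold is given. XTH17 entered the 22 measured members through its sgr1 signal alone.

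Several group 2 genes lie next to each other on the chromosome. On chromosome 5, XTH13 (AT5G57540), XTH25 (AT5G57550) and XTH22 are consecutive protein-coding genes. XTH13 had ratios of -0.07 and -0.05 and XTH25 of -0.23 and 0.12. Their 95% intervals were -0.34 to 0.22 and -0.34 to 0.23, and that of XTH22 was -1.36 to -0.80. XTH13 and XTH25 were dim, with signals between 6.15 and 6.84, and the offset can draw such ratios toward 0. Their intervals therefore do not show that they lack the fall of XTH22. With the scanner software's log ratios XTH13 was at -0.03, XTH25 at -0.58 and XTH22 at -1.28, and only XTH22 was called. The difference between these genes was not tested, and in each genotype XTH25 was well above background on a single array. On chromosome 4, XTH24 (AT4G30270), known as MERI5 from meristems, XTH18 (AT4G30280), which supports growth of the primary root, and XTH19 (AT4G30290) follow each other. None of these 3 was called, with means of 0.03 ± 0.0353, 0.23 ± 0.12 and 0.19 ± 0.189. XTH19 has a known part in the healing of cut inflorescence stems. Close copies within the family can hybridise to the same probe; probe and protein sequences were not used here, so the specificity of single probes was not tested.

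In group 3, 6 of 7 members were measured, and 2 rose, 2 fell and 2 did not pass. XTH27 (AT2G01850), which acts in the water-conducting cells of leaf veins, fell from signals of 11.48 and 11.45 to 10.81 and 10.73. Its ratios were -0.67 and -0.72, a 1.62-fold fall (-0.70 ± 0.041, adjusted p = 0.00016). Its close relative XTH28 (AT1G14720), needed for growth of stamen filaments, also fell, from 11.83 on both arrays to 11.49 and 11.40. XTH28 had ratios of -0.34 and -0.44 (1.31-fold, -0.39 ± 0.0707, adjusted p = 0.0408).

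XTH31 (AT3G44990), which has strong hydrolase activity, rose from 7.34 and 7.37 to 7.78 and 7.73, with ratios of 0.44 and 0.36 (1.32-fold, 0.40 ± 0.0589, adjusted p = 0.0341). XTH32 (AT2G36870), the other member known as a hydrolase, was lower on both arrays (-0.30 and -0.35) but missed the threshold (-0.32 ± 0.0311, adjusted p = 0.0985). XTH30 (AT1G32170), which acts in the salt response, rose from 8.18 and 8.14 to 8.59 and 8.50. Its ratios were 0.41 and 0.36, and among the called members its adjusted p was the closest to the threshold (1.31-fold, 0.38 ± 0.0339, adjusted p = 0.0437). XTH33 (AT1G10550), a membrane-bound member, was uncalled with ratios of 0.08 and 0.03.

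Depending on the processing, some of these calls were lost, although no called member changed direction under the settings that altered its ratio. With the log ratios of the scanner software in place of the loess-normalized values, XTH6 (adjusted p = 0.131), XTH9 (0.09), XTH28 (0.127), XTH30 (0.0825) and XTH31 (0.0718) no longer passed, while XTH7, XTH16, XTH22 and XTH27 did. The ratios of the 5 lost genes were not smaller by more than 0.01 in size, at 0.42, -0.51, -0.42, 0.53 and 0.56. XTH17 passed the test with the software's ratios (adjusted p = 0.000672) and with a normexp offset of 16 (adjusted p = 0.0197). Its wild type channel was not well above background on either array, so neither test compares 2 measured levels.

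**Figure D3:**
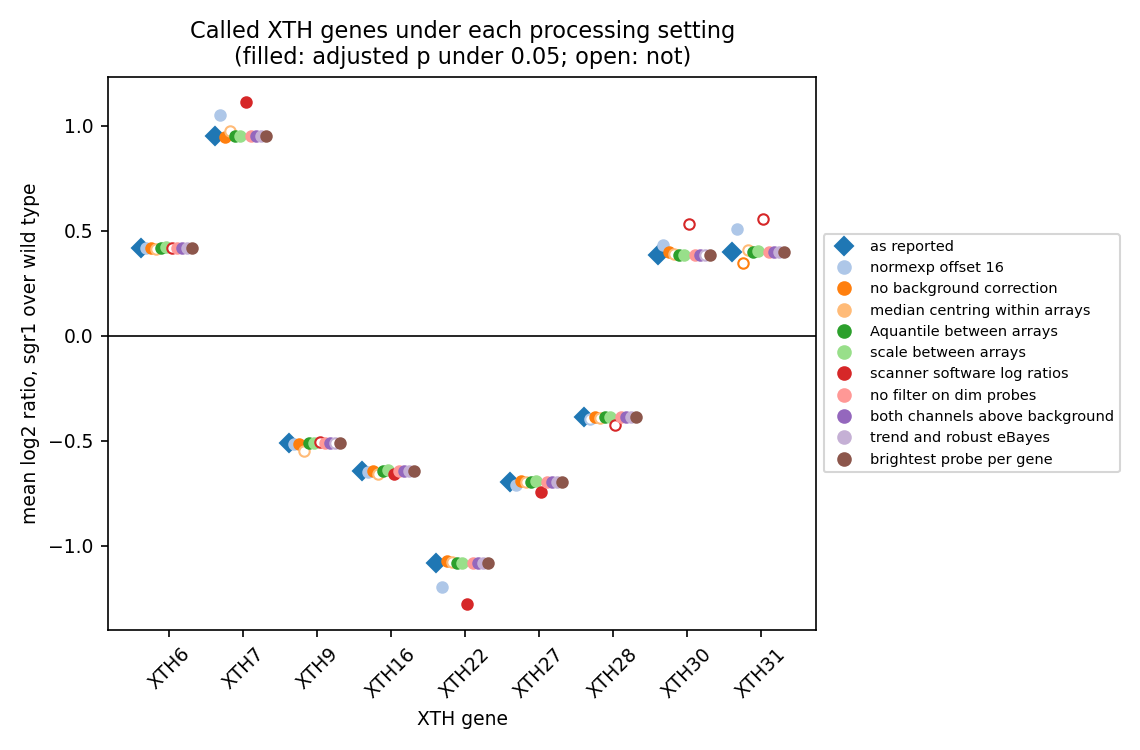
Mean log2 ratio of sgr1 over wild type (y axis) of the 9 called XTH genes (x axis) as reported (diamonds) and under 10 other settings (circles), filled where the adjusted p was under 0.05. Every point stays on the side of 0 of its diamond, although some settings cannot move a ratio and leave the point level with it. XTH7, XTH16, XTH22 and XTH27 are open only with median centring.

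The arrays gave similar ratios for the family. Of the 22 members 19 had the same sign on both arrays, as did 67.2% of all genes. XTH17, which passed the filter through its sgr1 signal alone, is among the 19. The median SD between arrays was 0.0636 for the members and 0.132 for all genes, and the correlation of the arrays was 0.93 across the 22 members and 0.72 across all genes. These correlations are descriptions across genes that share a slide and a hybridisation.

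**Figure D4:**
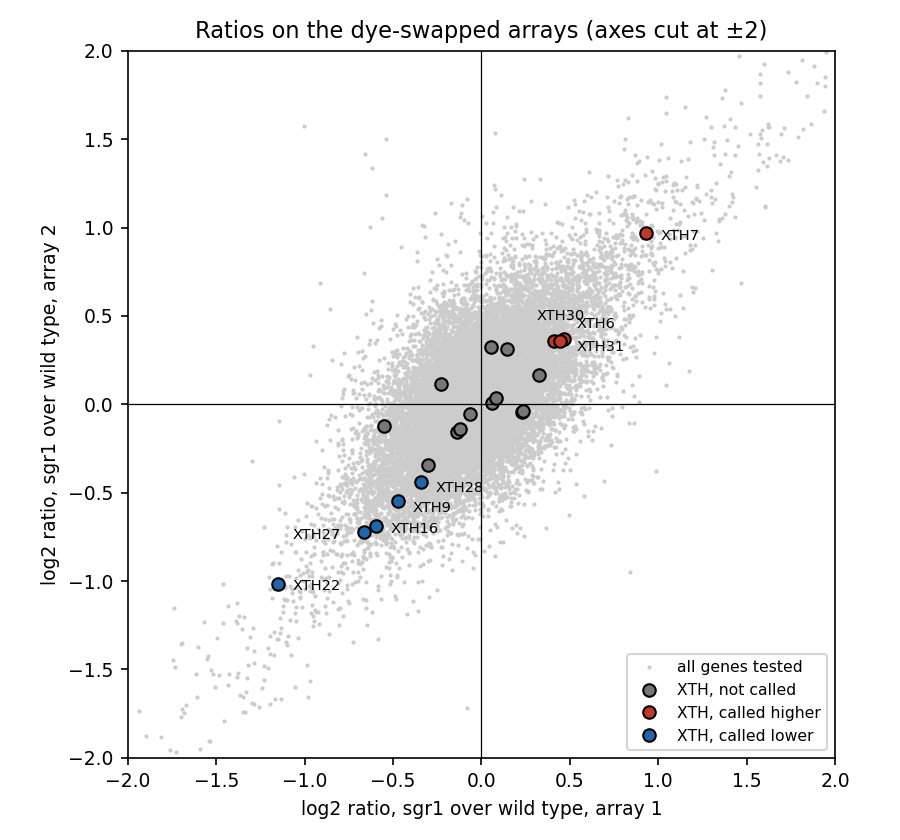
Log2 ratio of sgr1 over wild type on array 1 (x axis) against array 2 (y axis) for all 19059 genes (grey dots, axes ending at 2 in size) and for the 22 XTH genes (large points, coloured by call). The called members lie close to the diagonal, from XTH22 at -1.15 and -1.01 to XTH7 at 0.93 and 0.97.

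The other 11 members did not pass the filter, which asked for at least 1 channel well above background on each array. XTH1 (AT4G13080), XTH2 (AT4G13090), XTH14 (AT4G25820), XTH20 (AT5G48070), XTH21 (AT2G18800), XTH26 (AT4G28850) and XTH29 (AT4G18990) were well above background in none of the 4 channels. XTH14, XTH21 and XTH26 are known from roots, and XTH20 from cut stems, where it acts beside XTH19. XTH11 (AT3G48580) and XTH23 (AT4G25810) were above it in 1 wild type channel, and XTH12 (AT5G57530) in 1 sgr1 channel. XTH3 (AT3G25050) was above it in both genotypes on array 2 only, with signals of 6.35 in wild type and 6.42 in sgr1. No difference could be measured for these 11 genes, which does not show that they were silent in the stem. They included both members of the neighbouring pairs XTH1 with XTH2 and XTH23 with XTH14 on chromosome 4.

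Genes that make xyloglucan were described from a list of 17, all of which were measured. Of these, 3 rose and none fell, where 9.92% and 8.98% of all genes did, and the other 14 were uncalled, with a list median of 0.10. CSLC5 (AT4G31590), one of the synthases of the glucan backbone, had ratios of 0.47 and 0.36 (1.33-fold, 0.42 ± 0.0766, adjusted p = 0.0276). XLT2 (AT5G62220), which adds galactose to a xylose side chain, had ratios of 0.68 and 0.39 (1.44-fold, 0.53 ± 0.205, adjusted p = 0.00447). AXY4 (AT1G70230), which acetylates such a galactose, had ratios of 0.38 and 0.46 (1.33-fold, 0.42 ± 0.0573, adjusted p = 0.0273). None of these 3 calls held with the scanner software's log ratios (adjusted p = 0.131, 0.0861 and 0.112), at ratios of 0.43, 0.53 and 0.44. The backbone synthase CSLC4 (-0.05) and the xylosyltransferases XXT2 (0.10) and XXT5 (0.10) were uncalled, XXT1 was at -0.33 (adjusted p = 0.0921) and XXT3 at 0.37, with 0.07 on array 1 and 0.67 on array 2.

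Of 3 enzymes that trim xyloglucan side chains in the wall, 1 fell, where 8.98% of all genes did. BGAL10 (AT5G63810), the galactosidase that removes galactose from xyloglucan, went from signals of 12.89 and 12.92 to 12.26 on both arrays. Its ratios of -0.63 and -0.66 made a 1.56-fold fall (-0.64 ± 0.0204, adjusted p = 0.000467). The xylosidase XYL1 (0.16) and the fucosidase AXY8 (0.07) did not pass.

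XTH22 was first found as one of the touch-induced TCH genes, the others of which encode calmodulin or calmodulin-like proteins. Of these 3, TCH3 (AT2G41100) fell, where 8.98% of all genes did. Its ratios were -1.26 and -1.71 (2.80-fold, -1.49 ± 0.319, adjusted p = 7.01e-12). TCH1 (AT2G41110) was uncalled at -0.11 ± 0.0658. TCH2 (AT5G37770) had ratios of opposite sign, -0.30 and 0.36, and was uncalled.

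**Figure D5:**
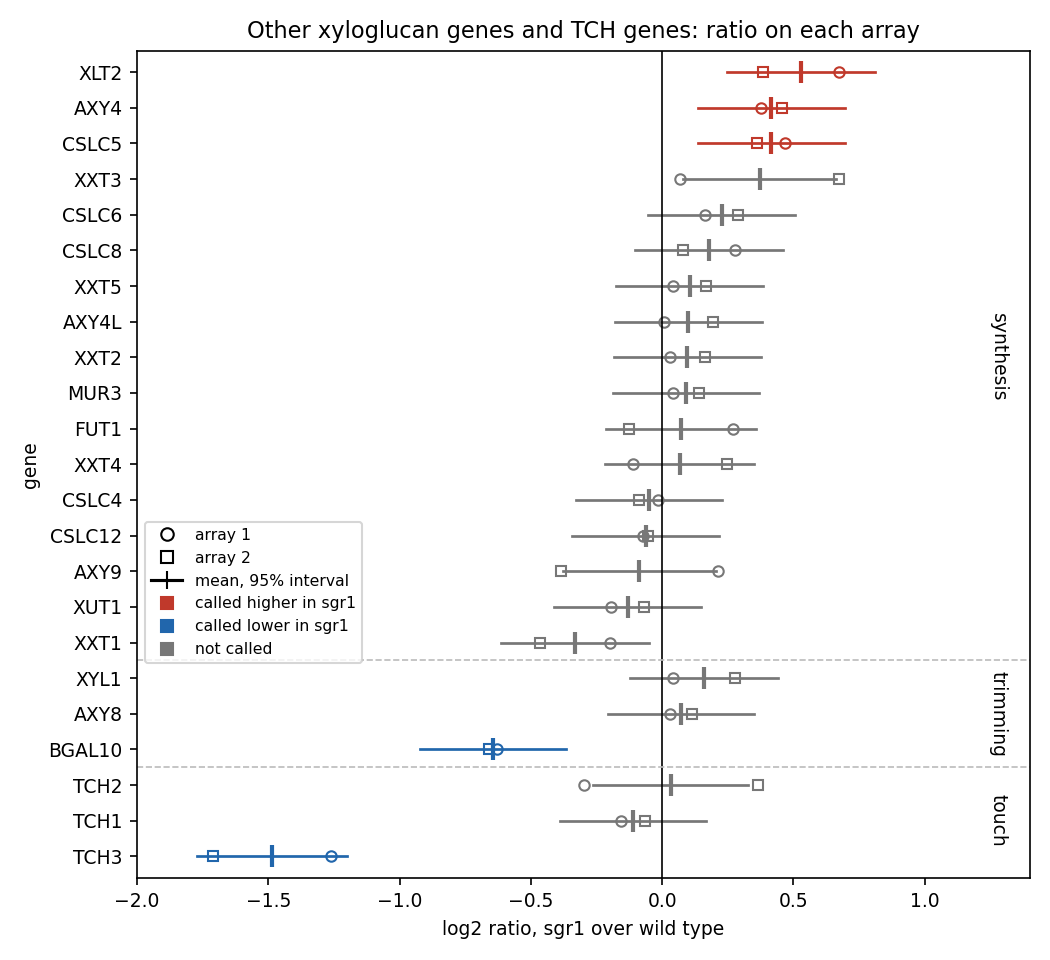
Log2 ratio of sgr1 over wild type (x axis) for 17 genes of xyloglucan synthesis, 3 of side chain trimming and the 3 other TCH genes (y axis). Circles are array 1, squares array 2, ticks the mean and lines its 95% interval from limma. XLT2 lies highest at 0.53, and BGAL10 at -0.64 and TCH3 at -1.49 lie below 0.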

How the data were processed

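Each array was read from the deposited scanner file, which holds the spot and local background intensity of each channel, written by Agilent Feature Extraction 9.1.3.1 per the file headers. The deposited log10 ratio of Cy5 over Cy3 is the software's own, and the series' value table holds the same values. For the probes, no genome build is named in the labels or file headers. Intensities were corrected with normexp (offset 50) and loess-normalized within arrays (limma 3.58.1, R 4.3.3), and outlier spots (96 and 177) were left out. Array 1 was turned in sign. Probes with at least 1 channel well above background on each array were averaged per locus, leaving 19059 genes. The log2 ratio was tested against 0 with lmFit and eBayes (two-sided, 1 residual and 47.7 prior degrees of freedom). Were both arrays made from the same extracts, they would count as 1 replicate with no test. Signals by genotype were taken after Aquantile normalization.

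On simulated arrays where few genes were changed, most 2-fold changes were called and most 1.5-fold changes were missed. Far more genes were called in the data, which makes the adjusted p less strict. The smallest called change there was 0.375 in log2 size, so the simulated rates do not carry over to these calls. Every member was accounted for, and called members were named with both arrays' ratios. The members and lists were chosen with earlier results of these data known. Symbols came from the TAIR10.1 table.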

Additional observations from a re-analysis of the deposited data

How the results depend on the processing

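Under 10 other settings no called XTH or pathway gene reversed, but not all of these could move a ratio. Aquantile normalization, both filter settings, the brightest probe per gene and trend and robust eBayes left the ratios of these genes unchanged. A reversal could appear only under the other settings. Aquantile or scale normalization between arrays, no filter on dim probes, both channels above background, and the brightest probe per gene kept all 9 member calls. Of these, only scale normalization altered the ratios of the called members, each of which has 1 spot. Aquantile normalization left the test as it was, and the others changed only which genes entered it. Keeping the calls there was thus largely fixed beforehand. XTH28 was lost with a normexp offset of 16 (adjusted p = 0.0567), XTH31 without background correction (0.0703), and XTH9 (0.0504) and XTH30 (0.0569) with trend and robust eBayes. With the scanner software's log ratios 2 members were called higher and 3 lower, and 0 synthesis genes were called, while trend and robust eBayes called 4. With median centring in place of loess 0 members were higher and 0 lower, 0 synthesis genes were called and 0 of the 22 members, against 4 with loess, were at least 1.5-fold apart on both arrays. The called members kept mean ratios of 0.39 to 1.08 in size, but dye bias is then left in each array, and the median SD between arrays was 1.20 over all genes against 0.132. Over all genes it left 2 calls, 1 higher and 1 lower, and the software's ratios left 999 higher and 953 lower, against 1891 and 1711. The median of the family was -0.0498 over all 33 members without the filter. Leaving out a replicate allows no test. The median was then between -0.0411 and -0.00608, and 4 members were at least 1.5-fold apart on either array alone. Each ratio already pairs the genotypes of 1 array, and no further replicate block could be fitted. Brightness limits the 11 unmeasured members and XTH17, and changes of dim genes can be understated by the offset. XTH13, XTH19, XTH25 and XTH33 were also dim. With the software's ratios XTH19 went from 0.19 to 0.46, XTH25 from -0.06 to -0.58 and XTH33 from 0.06 to 0.20. XTH13 instead went from -0.06 to -0.03, and all of these stayed uncalled.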
